A study of Mus musculus with 2 samples.

Results

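Neurons that carry transcripts of both Pthlh and Otp are described here, as found among reporter-positive cells of the postnatal mouse arcuate nucleus and median eminence. They were chosen from measured values. A cell was taken when it held at least 1 unique transcript count (UMI) of Pthlh and at least 1 of Otp, when Agrp, Sst and Pomc were each below 10 counts per 10000 UMIs of the cell (CP10K), and when Snap25, Stmn2 and Syt1 together reached 5 CP10K. This gave 135 of 7418 cells, 71 of 3479 from control mice and 64 of 3939 from mice heterozygous for both Irx3 and Irx5 (dHet). Neurons by the same sum of Snap25, Stmn2 and Syt1 numbered 2467 and 3053, and the 2396 and 2989 neurons outside the choice are called other neurons.

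Pthlh encodes parathyroid hormone-related protein (PTHrP), a secreted peptide that acts on nearby cells through the receptor Pth1r, which couples to Gs, adenylyl cyclase and protein kinase A. Otp is a homeodomain factor needed for the formation of several neuroendocrine and arcuate neuron types, among them those that make somatostatin or Agrp. Bcl11b, given with Pthlh and Otp as a marker of these cells, is a zinc finger factor best known from T cells, striatal projection neurons and subcerebral cortical neurons. In the annotation of build GRCm38, Pthlh (ENSMUSG00000048776) lies on the minus strand of chromosome 6 from 147252101 to 147264183. Otp (ENSMUSG00000021685) lies on the plus strand of chromosome 13 from 94875602 to 94885130, and Bcl11b (ENSMUSG00000048251) on the minus strand of chromosome 12 from 107910403 to 108003602.

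Both libraries were made from CD-1 mice at postnatal day 10, with the tissue of 5 mice pooled per genotype before dissociation, sorting and droplet sequencing. Control mice were Ins2-Cre;tdTomato+/-, and dHet mice were Ins2-Cre;tdTomato+/-;Irx3/5+/-. Both genotypes thus carried the Cre driver and the reporter, and only cells in which the Ins2 promoter had at some time driven Cre could be sorted. With 1 pool and 1 library per genotype, genotype and library cannot be told apart, cells are not replicates, and no test was made between the libraries.

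The control cells together held 63100794 UMIs and the dHet cells 71827597, with a median of 16508 and 17175 per cell. The Pthlh and Otp neurons were deeper than other neurons, with a median of 32029 UMIs in control and 27030 in dHet against 21525 and 20482. A rule that asks for 1 UMI of each of 2 genes takes deep cells more readily. The part of depth in the results is therefore given below by thinning every cell to 10000 UMIs. Mitochondrial UMIs made up a median of 4.48% and 5.50% of these cells. The libraries shared 4 cell barcodes, none of them a Pthlh and Otp neuron.

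The choice by single UMIs was loose for part of the cells. Exactly 1 UMI of each gene was present in 7 control and 6 dHet cells, and at least 2 UMIs of each in 42 and 32. Among cells below the neuron sum, 0 of 1012 control cells held both UMIs, which allows a share of up to 0.296% (3 counts of the total), and 2 of 886 dHet cells did. At the limits, the highest value inside was 9.80 CP10K for Agrp and 9.27 for Sst, and the lowest outside were 10.1 and 10.3. Pomc never exceeded 0.808 CP10K in these cells, and the lowest neuron sum was 8.08.

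The rule itself asks for 3 pan-neuronal genes, so the label of neuron was checked on the other 5 of the list (Tubb3, Elavl4, Rbfox3, Map2 and Celf4). Their summed level per cell ran from 22.7 to 46.2 CP10K in control with a median of 34.2, and from 21.2 to 56.8 in dHet with a median of 37.3. Cells below the neuron sum had medians of 3.30 and 3.85. None of the 6 microglial markers had a UMI, and a count of 0 over all cells allows up to 1.33 CPM (UMIs scaled to 1000000 per group of cells and library) in control and 1.62 in dHet. Astrocyte markers summed to 40.7 and 32.4 CPM against 99.6 and 106 in other neurons, with Aldh1l1 and Gja1 at 0 in both libraries. Only 1 control cell reached 5 CP10K for that list. All 8 tanycyte markers were detected, at a sum of 100.1 and 70.3 CPM against 86.1 and 79.9 in other neurons. Oligodendrocyte lineage markers summed to 52.7 and 53.5 CPM against 77.5 and 74.5, with Olig1, Olig2 and Mog at 0 in both libraries. Of the pituitary list, 3 of 7 were detected, at a sum of 301 and 310.4 CPM against 495 and 486 in other neurons, and 8 control and 9 dHet cells reached 5 CP10K. Chgb, a granin that neurons also make, accounted for 294 and 307 CPM of it, and Cga for 5.76 and 2.16, while Tshb, Pitx1 and Lhb were among those at 0 in both libraries.

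Of the markers named for these cells, Pthlh and Otp were fixed by the rule and are given as a description. Pthlh was counted at 327 UMIs in control (145 CPM, exact Poisson 95% interval 129.6 to 161) and 225 UMIs in dHet (122 CPM, 106 to 139). Single cells held 1 to 22 Pthlh UMIs in control with a median of 3, and 1 to 27 in dHet with a median of 2. Otp was at 343 CPM in control (320 to 368) and 321 in dHet (295 to 348). Cells ranged from 1 to 37 Otp UMIs with a median of 10 in control, and from 1 to 31 with a median of 5.5 in dHet. Outside the choice, Pthlh was at 78.9 and 67.8 CPM in neurons with Pthlh and no Otp UMI, at 57.1 and 26.5 in Sst-high neurons (at or above 10 CP10K of Sst) and at 2.97 and 3.21 in Agrp-high neurons. Otp was at 313 and 320.0 CPM in neurons with Otp and no Pthlh UMI, close to the level in the Pthlh and Otp neurons, and at 481 and 527 in Agrp-high neurons. These and all other intervals cover counting error only, not differences between mice or pools.

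Bcl11b was not part of the rule and split the cells. It was detected in 44 of 71 control cells (62.0%, exact 95% interval 49.7 to 73.2) and 30 of 64 dHet cells (46.9%, 34.3 to 59.8). After thinning to 10000 UMIs the shares were 43.5% of 69 and 41.3% of 63, against 13.9% and 12.8% of other neurons. Among cells below the neuron sum, 1.67% of 359 and 2.68% of 224 thinned cells held a Bcl11b UMI. All 1012 and 886 cells below the neuron sum had a median depth of 8246.5 and 7330.5 UMIs. Its level was 147 CPM in control and 106 CPM in dHet. Neurons with Otp but no Pthlh UMI, within the same limits, had 56.6 and 70.7 CPM, and those with Pthlh but no Otp UMI had 62.4 and 92.8 CPM. Agrp-high neurons (at or above 10 CP10K), which also express Otp, had 1 and 3 Bcl11b UMIs, or 0.229 and 0.385 CPM.

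**Figure D1:**
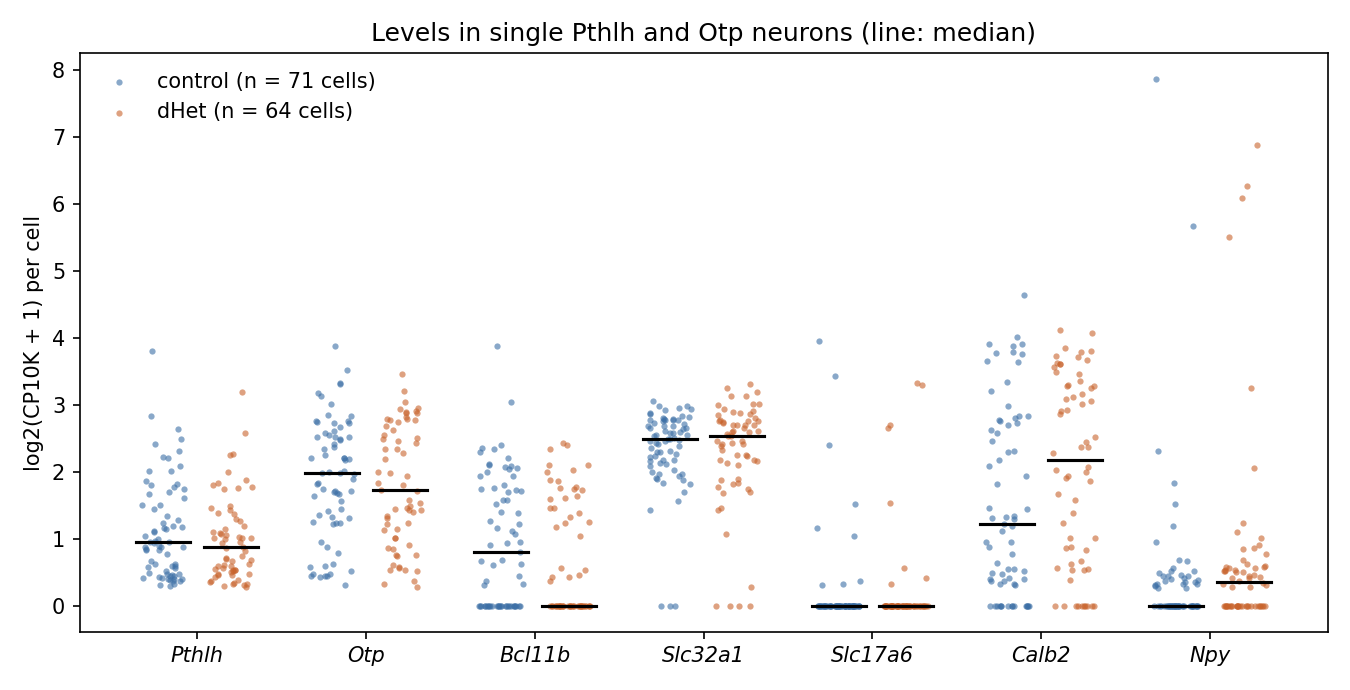
Level per cell, as log2(CP10K + 1), of 7 genes in the 71 control (blue) and 64 dHet (orange) Pthlh and Otp neurons; each point is 1 cell and each black line a median. Slc32a1 is present in nearly every cell, Bcl11b and Calb2 are spread from 0 upward, and Npy is high in single cells only.

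The cells were predominantly GABAergic by their transmitter genes. Slc32a1, the vesicular GABA transporter, was detected in 68 of 71 control cells (95.8%) and 60 of 64 dHet cells (93.8%). In cells below the neuron sum it was detected in 2.57% and 3.05%. It stood at 464 and 442 CPM against 201 and 198 in other neurons, and was 1 of the 35 genes at least 2-fold higher in both libraries that are described below. Gad1 and Gad2, the enzymes that make GABA, were at 250.2 and 213 CPM and at 516 and 416 CPM. Slc17a6, the vesicular glutamate transporter of the hypothalamus, was detected in 9 control and 8 dHet cells, at 33.7 and 50.8 CPM against 207 and 216 CPM in other neurons.

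GABA and glutamate transporters largely fell to different cells. Slc32a1 alone was found in 61 control and 56 dHet cells, both in 7 and 4, and Slc17a6 alone in 2 and 4. Each cell with Slc17a6 alone held exactly 1 Otp UMI, the lowest count that the rule takes. More Slc17a6 than Slc32a1 UMIs were held by 3 control and 5 dHet cells. Across single cells, Pearson's r between Slc17a6 and Slc32a1, on log values of CP10K, was −0.57 in control (n = 71) and −0.74 in dHet (n = 64). Slc17a6 also went with Cacna2d1, a calcium channel subunit (r = 0.68 and 0.77), and against Isl1 (r = −0.52 and −0.61). Cells of a library share its pool, free RNA and preparation, so these are descriptions without a p.

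Of the transcription factors, Six3, a forebrain homeodomain factor, was detected in 70 of 71 and 62 of 64 cells. It was at 908 CPM in control and 750 CPM in dHet, with 281 and 273 CPM in other neurons. Its single-cell levels ran from 0 to 17.0 CP10K in control with a median of 8.98, and from 0 to 13.4 in dHet with a median of 7.61. Cells below the neuron sum were also often Six3-positive (67.4% and 72.3% after thinning), so detection alone does not separate these neurons. Isl1, a LIM homeodomain factor of many arcuate neurons, was at 384 and 313 CPM and in 67 of 71 and 58 of 64 cells. Six6 was at 166 and 178 CPM, near the 133 and 129 CPM of other neurons.

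Of the 58 factors of the arcuate and Otp lineage list that were measured, 3 were at least 2-fold higher than in other neurons in both libraries and 16 at least 2-fold lower. Over all genes compared, 0.257% were higher and 0.786% lower. The 3 higher were Six3, Bcl11b and its paralog Bcl11a (116 and 83.3 CPM against 47.2 and 38.8). Satb1, a chromatin organizer, stood at 65.5 and 44.3 CPM against 21.9 and 20.4, past the fold in control and just short of it in dHet. Among the factors that were lower, Zfhx3 was at 21.7 and 27.0 CPM against 138 and 148. Rorb was at 22.6 and 12.4 CPM against 85.1 and 78.5, and Nkx2-1, a factor of ventral hypothalamic fate, at 24.4 and 17.3 against 65.9 and 54.9. Sim1, which acts with Otp in paraventricular neurons, had no UMI in these cells. Irx3 and Irx5 themselves had no UMI in either library, so their heterozygous loss could not be read in the cells at this depth.

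PTHrP acts through receptors that were sparse in the same cells. Pth1r was counted at 16 UMIs in control and 21 in dHet, or 7.09 and 11.4 CPM, against 7.47 and 7.99 CPM in other neurons. The dHet over control ratio was 1.60 with an exact 95% interval of 0.797 to 3.29, so a difference was not detectable at this depth. Pth2r had 5 and 4 UMIs, and Pth had none. After thinning, a Pth1r UMI was found in 5.80% and 4.76% of these cells and in 6.96% and 8.04% of cells below the neuron sum, so its detection here was not above that of cells outside the neuron sum. Whether those cells express Pth1r themselves or hold free RNA was not tested.

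Downstream and processing genes of the PTHrP list were mostly at the level of other neurons. Of 30 measured, 0 were at least 2-fold higher and 3 at least 2-fold lower, beside 0.257% and 0.786% of all genes. These shares apply to every list set against other neurons. The median log2 ratio was −0.06 in control and −0.10 in dHet, where all genes compared had −0.07 in both. Gnas, the Gs alpha subunit, stood at 5432 and 4530 CPM against 3032 and 2873. Adcy2, an adenylyl cyclase, was at 50.05 and 52.5 CPM against 30.3 and 27.1, and Prkar2b, a regulatory subunit of protein kinase A, at 174 and 157 against 124 and 121. Furin, a convertase known to cleave proPTHrP, was at 9.74 and 5.95 CPM against 12.5 and 8.84.

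Pcsk1 and Pcsk2, the convertases of neuropeptide granules, were lower than in other neurons. Pcsk1 was at 16.4 and 16.8 CPM against 41.3 and 40.0 (log2 ratio −1.11 and −1.05). Pcsk2 was at 35.9 and 36.8 CPM against 144 and 125 (−1.87 and −1.64). Scg2, a granin, was at 472 and 491 CPM against 1036 and 1122. These were the 3 of 18 measured granule genes past the 2-fold threshold, all lower, where 0.786% of all genes were lower and 0.257% higher. Carboxypeptidase E (Cpe) was at 474 and 489 CPM against 494 and 528, within 0.11 log2 of other neurons in both libraries.

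Across all genes with at least 100 UMIs, 35 of 13606 (0.257%) were at least 2-fold higher than in other neurons in both libraries and 107 (0.786%) at least 2-fold lower, with 5 CPM added to each side. With 20 CPM added the counts were 15 and 28. The cells were chosen from their own transcripts, so this is a description of what the rule picked out, without a test. Of the genes that lead by the smaller ratio of the 2 libraries, Plpp4, a lipid phosphatase, was at 56.7 and 48.1 CPM against 10.2 and 9.53 in other neurons. Hmgn5, a nucleosome-binding protein, was at 263 and 198 CPM against 61.8 and 55.6.

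Of the axon guidance and adhesion list, 0 of 54 measured genes were at least 2-fold higher and 2 lower. Among the leading genes, Col25a1, a transmembrane collagen, was at 200.2 and 164 CPM against 48.4 and 47.1. Cbln4, a secreted synaptic organizer of the C1q family, was at 364 and 332 CPM against 117 and 94.6, and was present in 62 control and 60 dHet cells. Its level was similar in Sst-high neurons, at 335 and 299 CPM, and at 395 and 319 CPM in those without both UMIs. Slitrk6, a synaptic adhesion protein, was at 19.5 and 20.6 CPM against 4.77 and 5.01. Whrn, the scaffold protein whirlin, was at 47.4 and 56.8 CPM against 12.7 and 11.02. The 15 highest also included Parm1, Bcl11b, Six3, Rnf152, Prkcq, Amn, Tle1 and Dach1, with log2 ratios of 1.30 to 1.93 in single libraries. Tle1 and Dach1 are transcriptional corepressors, and Prkcq is a protein kinase C isoform.

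Neurons with Otp alone are the nearest comparison by the rule. Against neurons with Otp and no Pthlh UMI alone, 7 of 9393 genes were at least 2-fold higher (0.0745%) and 33 lower (0.351%). Plpp4 stayed at a log2 ratio of at least 1.22 in both libraries in that comparison, Rnf152 at 1.33 and Whrn at 1.09. Amn was at 0.11 by the smaller ratio, Dach1 at 0.24 and Parm1 at 0.37. The plot of leading genes sets 5 groups of neurons side by side.

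**Figure D2:**
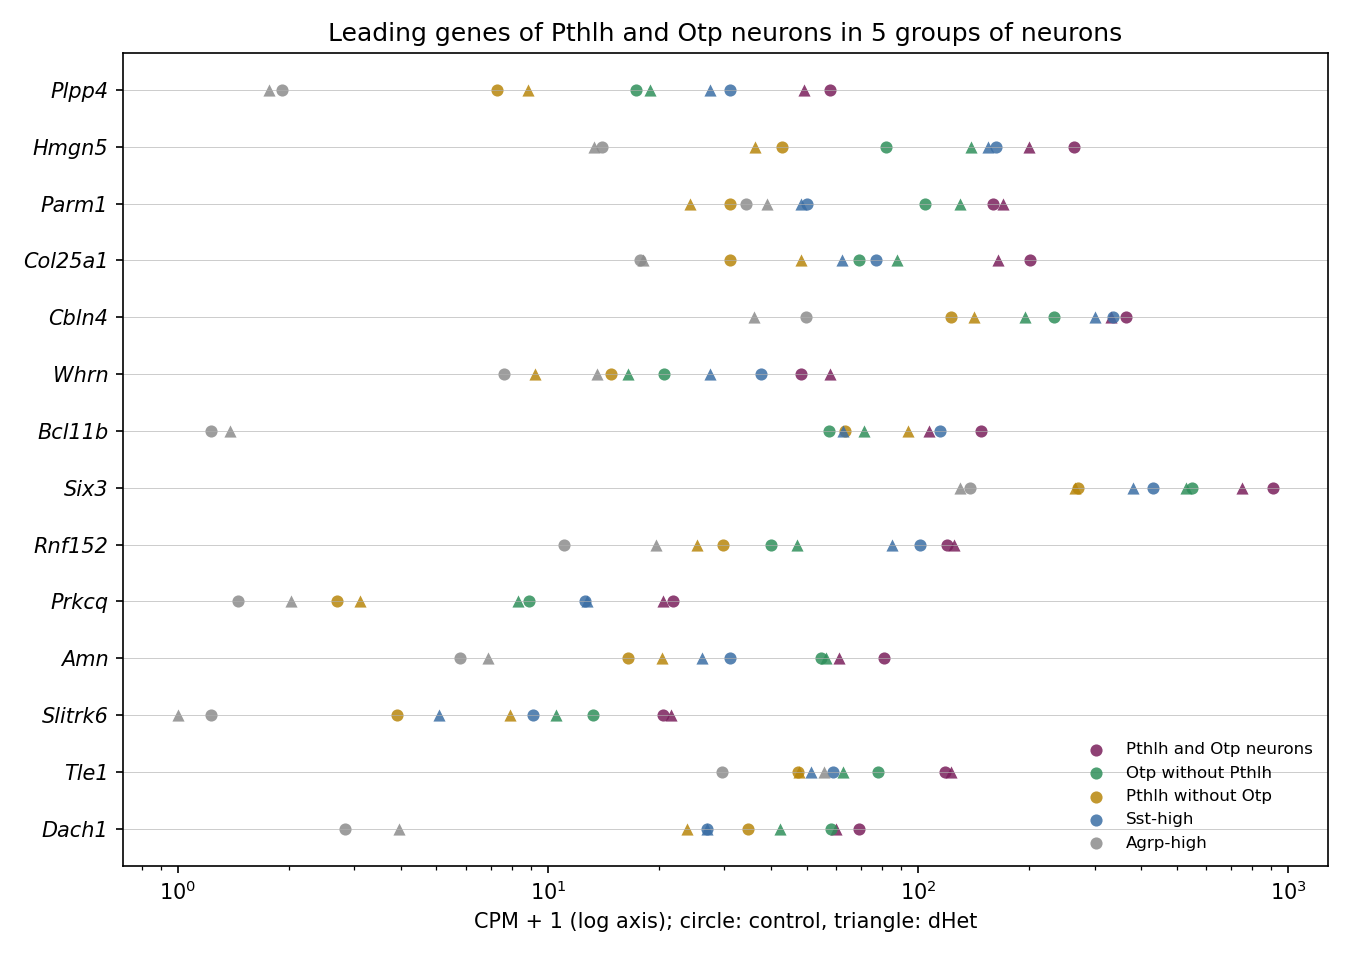
Level (CPM + 1, log axis) of leading genes in 5 groups of neurons; circles are the control and triangles the dHet library, and each symbol is the sum over the cells of 1 group and library. For Plpp4 the Pthlh and Otp neurons are at 56.7 and 48.1 CPM, and for most of the genes shown the Agrp-high neurons have the lowest level.

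The genes lowest against other neurons were mainly peptides and markers of other hypothalamic types. Tac2, of the arcuate neurokinin B neurons, was at 6.20 and 5.41 CPM against 279 and 193. Pmch, Vip and Avp were at 0.886 and 0.541, 0.886 and 0.541, and 10.6 and 2.70 CPM. The corresponding levels in other neurons were 227 and 90.9, 81.0 and 136, and 209 and 430.4 CPM. Crabp1 had 3 and 1 UMIs, Trh 0 and 2, and Qrfp none. Cck was at 1.77 and 1.62 CPM against 67.6 and 77.3, and Tcf7l2, a factor of the thalamus and other diencephalic neurons, had 2 and 6 UMIs. Apoe, a lipoprotein made mostly by glia, was at 8.86 and 9.19 CPM against 162 and 159.

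Neuropeptides of the classical arcuate types were mostly low. Of 30 measured genes of the peptide list, with Agrp, Sst and Pomc left out because the rule limits them, 1 was at least 2-fold higher in both libraries (Cbln4). The 13 at least 2-fold lower included Tac2, Pmch, Vip, Avp, Npy and Gal. For Npy, Agrp-high neurons held 84864 of the 96329 UMIs of other neurons in control and 146939 of 162425 in dHet. The rule leaves Agrp-high neurons out, so the lower Npy cannot be read apart from the rule. The shares over all genes are again 0.257% higher and 0.786% lower. Pnoc, the precursor of nociceptin, was detected most widely, in 43 cells of each library, at 133 and 120.1 CPM against 79.5 and 78.6. Npy was detected in 30 control and 37 dHet cells, but after thinning in 17.4% and 30.2%, where 23.7% and 41.1% of cells below the neuron sum held it. That detection was below the share in those cells in both libraries. A level of 20 CP10K or more was reached for Npy in 2 control and 4 dHet cells, for Gal and Ghrh in 1 cell of each library, and for Tac1 in 1 dHet cell. The cells with Npy at that level each held exactly 1 Pthlh UMI, the lowest count that the rule takes, and no Bcl11b UMI. Crh had no UMI in either library. Agrp, which the rule holds below 10 CP10K, was at 17.7 CPM in control and 56.2 in dHet. Thinned, it was detected in 4.35% and 19.0% of these cells and in 6.41% and 14.7% of cells below the neuron sum.

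Of 45 feeding-related and hormone receptors measured, 1 was at least 2-fold higher in both libraries. It was Sstr1, a somatostatin receptor, at 50.9 and 41.1 CPM against 22.6 and 16.9, in 71.8% and 56.2% of cells. The 2 that were lower in both libraries were the neuropeptide Y receptors Npy1r and Npy2r, the latter at 22.1 and 21.1 CPM against 51.4 and 53.9. Lepr, the leptin receptor, was counted at 1 UMI in control and 4 in dHet, and Mc4r at 0. Trhr, the thyrotropin-releasing hormone receptor, was at 16.4 and 26.5 CPM against 9.19 and 7.57. Thra, a thyroid hormone receptor, was at 640 and 634 CPM against 515 and 483.

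The glutamate receptors Grin3a, Grm7 and Grm8 stood near the 2-fold threshold in both libraries. Grin3a was at 158 and 148 CPM against 77.3 and 69.9, and Grm7 at 75.3 and 70.8 against 35.8 and 33.2. Grm8 was at 39.9 and 48.7 CPM against 18.4 and 17.5. None of the 38 measured GABA and glutamate receptor genes passed the threshold upward in both libraries, and 1, Grik3, passed it downward. Of 50 ion channel genes, 0 were higher and 2 lower, Kcnk9 and Cacna2d1, the latter at 67.3 and 127 CPM against 234 and 269.

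Cells with and without a Bcl11b UMI differed by at least 2-fold in both libraries for a small set of genes. Those with Bcl11b were deeper, at a median of 35857.5 against 27683 UMIs in control and 31329 against 24210.5 in dHet. The part of depth in the split was not tested. Of 5940 genes compared, each with 100 or more UMIs and detected in 25% or more of the cells, 11 were at least 2-fold higher with Bcl11b in both libraries (0.185%) and 17 at least 2-fold lower (0.286%). All the genes were measured in the cells that were split, so this too is a description.

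Higher with Bcl11b was Satb1, at 87.8 against 21.2 CPM in control and 72.3 against 15.4 in dHet. Bcl11a was at 148 against 51.7 and at 128 against 37.4 CPM. Hmgn5 was at 348 against 92.8 and at 296 against 97.9 CPM. Thy1, a surface glycoprotein of projection neurons, was at 336 against 143 and at 345 against 95.7 CPM. Calb1, the calcium buffer calbindin, was at 305 against 143 and at 249.9 against 97.9 CPM. Amn, Spr, Vstm2a, A2ml1, Mgat4c and Ocel1 were also at least 2-fold higher in both libraries.

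Lower with Bcl11b was Tbx3, a T-box factor of arcuate peptide neurons, at 8.65 against 82.2 CPM in control and 36.2 against 105 in dHet. Pnoc was at 81.2 against 236 and at 62.8 against 179 CPM. Cited1, a transcriptional coregulator, was at 79.2 against 281 and at 85.1 against 303 CPM. Ngb, the globin neuroglobin, was at 5.99 against 51.7 and at 10.6 against 46.2 CPM. Npy showed the widest gap, 36.6 against 1386 and 33.0 against 1049 CPM, but it lay in few cells. A single control cell held 908 of the 2085 Npy UMIs of both libraries.

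**Figure D3:**
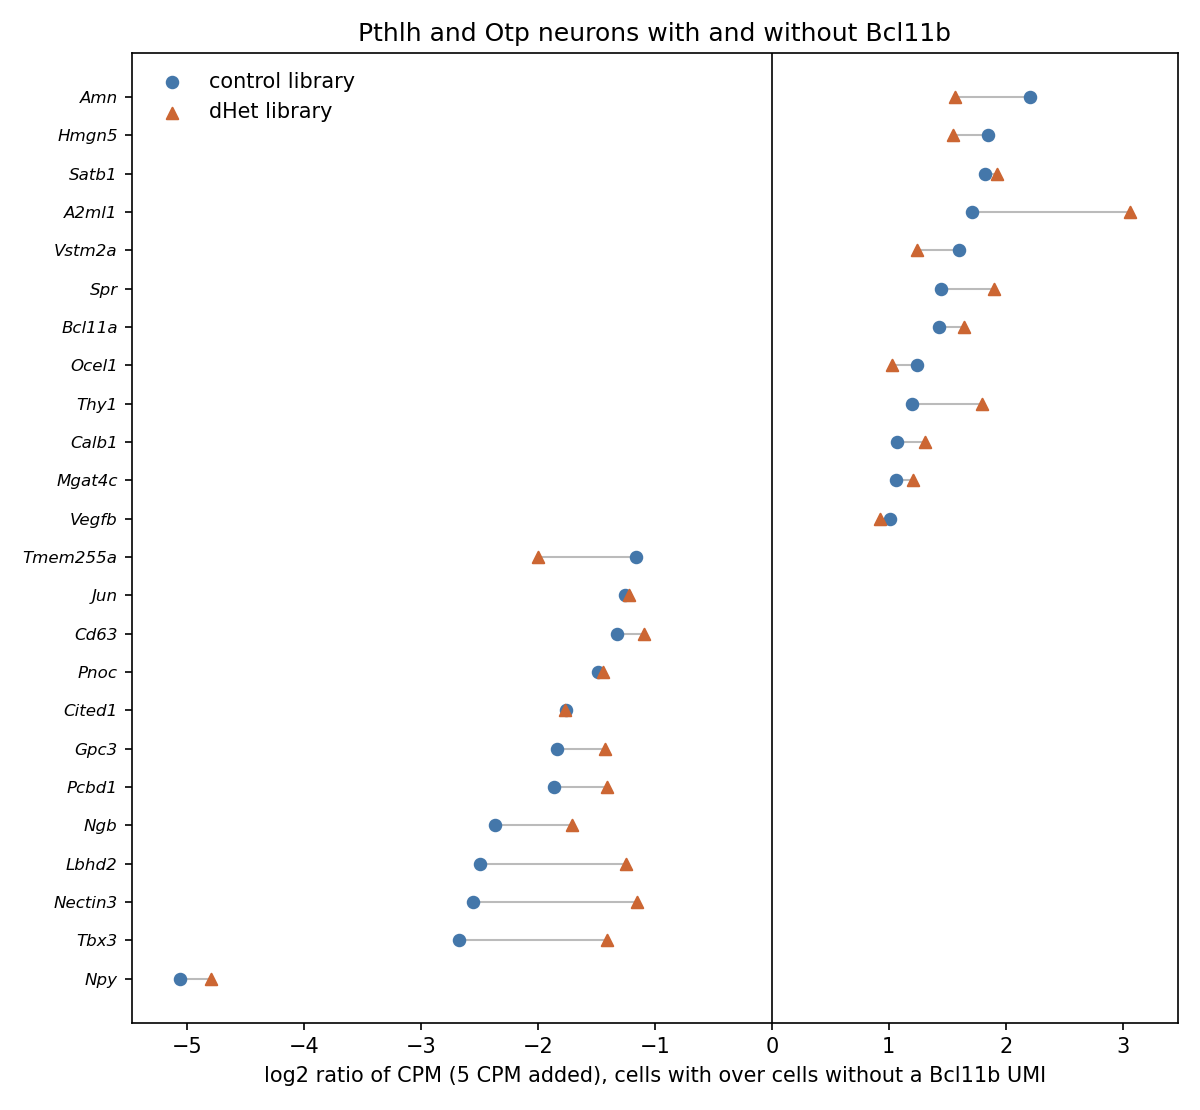
Log2 ratio of CPM (5 CPM added to each side) of cells with over cells without a Bcl11b UMI, for the 12 highest and 12 lowest genes by the smaller of the 2 libraries' ratios; blue circles are the control and orange triangles the dHet library. Satb1 is at 1.82 and 1.92, Tbx3 at −2.68 and −1.41, and Npy at −5.06 and −4.79.

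Single-cell levels give the relations of Bcl11b without a split. Pearson's r of Bcl11b with Thy1 was 0.53 in control and 0.66 in dHet, and with Bcl11a 0.46 and 0.51. Against Bcl11b went Gpx3 (r = −0.64 and −0.53), Ncald (−0.58 and −0.62) and Calb2, the calcium buffer calretinin (−0.55 and −0.48). Calb2 was at 163 CPM with and 693 CPM without Bcl11b in control, and at 349.9 and 661 in dHet. Nfix went with Nfib, another nuclear factor I gene, at r = 0.82 and 0.75. The 71 control and 64 dHet cells of each correlation share a pool, and deep cells yield more of every gene. No p is given.

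Some peptides lay in few cells, together with other genes. Npy went with Cited1 (r = 0.66 and 0.63), Calcr (0.50 and 0.59) and Npy2r (0.49 and 0.65). Gal, detected in 33 cells of both libraries together, went with Foxp2 (0.71 and 0.46), Scgn (0.60 and 0.69) and Gsx1 (0.52 and 0.63). The dHet cell with the most Ghrh held 310 of 460 Ghrh UMIs of both libraries, together with 93 Gal UMIs and only 1 UMI each of Pthlh and Otp. Scrublet marked none of the 135 cells as a doublet.

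Neurons with both UMIs that were left out for their Sst level were compared next. Both UMIs were found in 63 of 269 Sst-high neurons (at or above 10 CP10K) in control and 46 of 294 in dHet, or 23.4% and 15.6%. After thinning these were 19.0% and 12.8%. Among Agrp-high neurons the shares were 6.12% and 5.86%, and no cell was set aside for Pomc. In the cells set aside for Sst, 9 of the 15 leading genes were at least 2-fold above neurons without both UMIs in both libraries. Over all 13570 genes compared in that way 0.7% were. In those set aside for Agrp, 0 of 15 were.

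Bcl11b was at 307 and 266 CPM in the cells set aside for Sst, above the 147 and 106 CPM of the Pthlh and Otp neurons. In Sst-high neurons without both UMIs it was at 40.8 and 14.3 CPM. Hmgn5 was at 319 and 355 CPM and Plpp4 at 50.7 and 60.9 in the cells set aside. Pthlh was at 203 and 138 CPM and Otp at 512 and 517. Other genes separated the groups. Parm1 was at 21.7 and 34.2 CPM with high Sst against 159 and 169 without, Satb1 at 15.4 and 15.005 against 65.5 and 44.3, and Nfix at 17.1 and 20.8 against 109 and 54.1. Low Sst was also present within the Pthlh and Otp neurons, in 36 control and 26 dHet cells, at 104 and 68.7 CPM. Thinned, the shares with an Sst UMI were 34.8% and 27.0%, against 12.3% and 12.5% of cells below the neuron sum. Thinned other neurons, which include the Sst-high neurons, held one in 25.2% and 26.3%, so the dHet share was near theirs.

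The share of neurons that were Pthlh and Otp neurons was 2.88% in control (71 of 2467, exact 95% interval 2.25 to 3.62) and 2.10% in dHet (64 of 3053, 1.62 to 2.67). The dHet over control ratio was 0.728 with an exact interval of 0.511 to 1.04, so a difference was not detectable at this number of cells. Thinned to 10000 UMIs, the shares were 32 of 2056 (1.56%) and 36 of 2589 (1.39%), at a ratio of 0.893 (0.539 to 1.49). Without the limits on Agrp, Sst and Pomc, 143 control and 127 dHet neurons held both UMIs (5.80% and 4.16%), and the ratio of 0.718 had an interval of 0.561 to 0.918. Of the cells added by dropping the limits, 63 in control and 46 in dHet were Sst-high, and 9 and 17 were Agrp-high.

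Between the libraries, 31 of 5951 genes (0.521%) were at least 1.5-fold higher in dHet than in control Pthlh and Otp neurons and 81 (1.36%) at least 1.5-fold lower. The median log2 ratio was −0.02 in these cells and −0.03 for the same genes in other neurons. The genes compared had at least 100 UMIs over both libraries. Thinned to 10000 UMIs with the rule applied again, which left 32 control and 36 dHet cells, 1330 genes reached that minimum. Of these, 18 were higher and 24 lower, and 6 of those 42 were among the 112. How many of the 112 reached the minimum after thinning was not counted. Of the 112, 9 were past the same fold in the same direction in other neurons. Of all 5951 genes, 16 were past it there in either direction. For 3 of the 112 (Tac1, Ghrh and Cartpt), over 50% of UMIs lay in 5 cells. That held for 9 of all 5951 genes. The genotypes cannot be told apart from their libraries, and no p can be given.

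The highest ratios were those of Tac1 and Ghrh, and both rest on few cells. Tac1, the precursor of substance P, was at 15.1 CPM in control and 123 in dHet. It was detected in 5 and 8 cells, 95.04% of its UMIs lay in 5 cells, and 1 dHet cell held 128 of 262. Ghrh, growth hormone-releasing hormone, was at 64.2 and 170.4 CPM, with 98.3% of UMIs in 5 cells. With the neuron sum set to 20 CP10K, which leaves out the cell with 310 Ghrh UMIs, its log2 ratio was −3.14 in place of 1.34. Cartpt, a peptide of arcuate Pomc and other neurons, was at 81.5 and 32.4 CPM, and 75% of its UMIs lay in 5 cells.

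Tbx3 was counted in more cells. It was at 33.2 CPM in control and 69.8 in dHet, a ratio of 2.10 with a counting interval of 1.57 to 2.83, and other neurons had a log2 ratio of 0.05. It was detected in 24 of 71 control and 37 of 64 dHet cells, and after thinning in 18.8% and 41.3%. Thinned other neurons held it in 33.4% and 34.9%, and thinned cells below the neuron sum in 30.1% and 26.3%, so the control share lay below both. Single control cells reached 3.88 CP10K and dHet cells 3.66, so the libraries overlapped over their whole range. Among cells with at least 2 UMIs of Pthlh and of Otp its log2 ratio was 1.68 in place of 0.97. With Bcl11b, Tbx3 was at 8.65 CPM in control and 36.2 in dHet, and without it at 82.2 and 105. Cells without a Bcl11b UMI were a larger share in dHet before thinning, whereas the thinned shares with one were 43.5% and 41.3%, at a ratio of 0.949 (0.539 to 1.66).

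Grik1, a kainate receptor subunit, was at 50.05 and 95.7 CPM (ratio 1.91, 1.502 to 2.44), with 0.27 in other neurons. It was the 1 of 31 measured GABA and glutamate receptor subunits past the fold in this comparison, where 0.521% of all genes were higher and 1.36% lower. Rab26, B3gat2, Cacng3, AI314180, Asnsd1, Sox2 and Cacna2d1 were also among the 12 highest, at log2 ratios of 0.68 to 0.91. All matrix barcodes with at least 500 genes and at most 20% mitochondrial UMIs were an alternative choice. With that choice the ratios were 0.29, 0.76, 0.66, 0.55, 0.58, 0.53 and 0.52 in the same order. Among these genes, only B3gat2 and Cacng3 were then past 1.5-fold. Sox2 and Cacna2d1 lay partly in few cells, with 44.7% and 44.4% of UMIs in 5. Sox2 was detected in 23.9% of control and 20.3% of dHet cells. The log2 ratio of Cacna2d1 was −0.36 among cells with at least 2 UMIs of Pthlh and of Otp.

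Among the lower genes, Htr2c, the serotonin receptor of feeding circuits, was at 39.0 CPM in control and 14.1 in dHet (ratio 0.361, 0.223 to 0.564). It was detected in 32 of 71 and 17 of 64 cells, and other neurons had a log2 ratio of −0.21. Thinned, 29.0% and 11.1% of these cells held it, against 11.3% and 9.05% of other neurons. Its highest value was 3.64 CP10K in control and 1.53 in dHet, while the median was 0 in both. Rprm, a regulator of the cell cycle, was at 213 and 77.9 CPM, with detection in 69.0% and 70.3% of cells. The control cells ranged up to 12.99 CP10K and the dHet cells up to 4.20. With the rule applied again to thinned cells, which left 32 control and 36 dHet cells, the Rprm log2 ratio was −0.44 in place of −1.40. Among cells without any Sst UMI it was −0.43, and with at least 2 UMIs of Pthlh and of Otp −1.91. Mxi1, Frs3, Rmst and Vcan had log2 ratios of −1.01, −1.23, −1.05 and −0.995, with −0.12, −0.54, −0.07 and −0.35 in other neurons.

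Nfix was at 109 CPM in control and 54.1 in dHet, and was detected in 29 and 19 cells. Its log2 ratio was −0.95, and −1.68 among cells with at least 2 UMIs of Pthlh and of Otp. Nfib was at 128 and 80.04 CPM. Both were present together in 27 control and 14 dHet cells. Both genes are also strongly expressed in glia, and cells below the neuron sum held Nfix in 74.7% and 77.2%, so those cells are no measure of background for it. Thinned, 34.8% and 20.6% of the Pthlh and Otp neurons held Nfix, and 18.5% and 14.9% of other neurons. The summed astrocyte markers of the Pthlh and Otp neurons were 40.7 and 32.4 CPM beside this, and the part of glial RNA was not tested. With Bcl11b, Nfix was at 132 CPM in control and 53.2 in dHet, and without it at 64.9 and 55.0.

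Some of the lower genes were lower in other neurons too. Tpm3-rs7, a tropomyosin copy whose reads may be shared with Tpm3 and are uncertain, had a log2 ratio of −1.42 here and −1.25 in other neurons. AC160336.1 had −1.04 and −0.86. The immediate early genes Junb and Npas4, which neuronal activity and dissociation switch on, had −0.94 and −0.99 here and −1.16 and −1.53 in other neurons. Of the 10 immediate early genes measured, 0 were higher and 3 lower in dHet (Fos, Junb and Npas4). Over all genes compared, 0.521% were higher and 1.36% lower. The median of the 10 was −0.16, against −0.77 in other neurons. Xist, the transcript of the inactive X chromosome, was at 499 CPM in control and 746 in dHet, and in other neurons at 644 and 738. The part of dissociation and of the sex of the pooled mice in the differences was not tested.

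**Figure D4:**
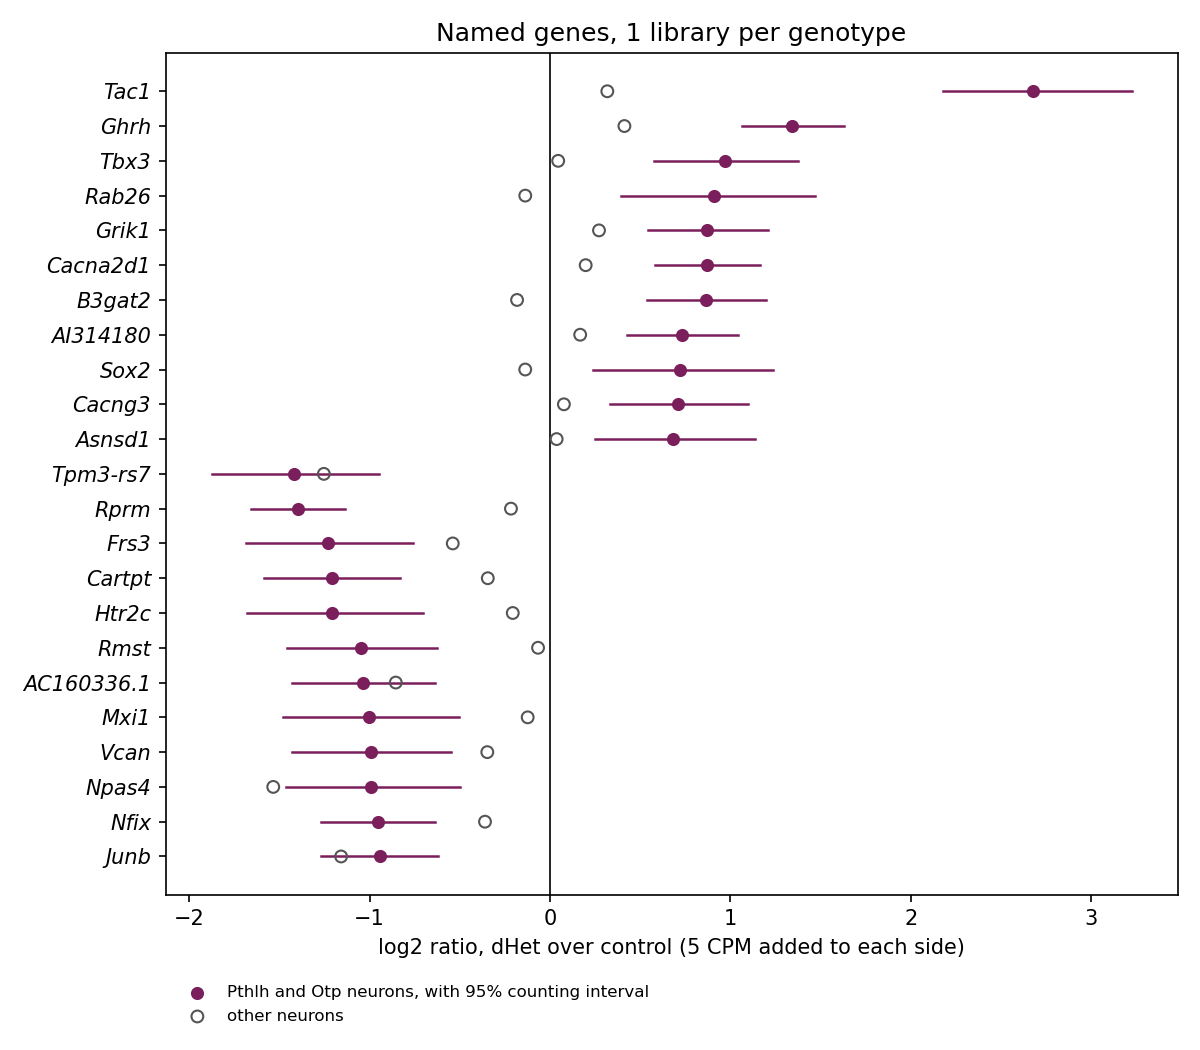
Log2 ratio, dHet over control, of genes among the 12 highest and 12 lowest in Pthlh and Otp neurons (filled points with 95% counting intervals) and in other neurons (open circles), with 5 CPM added to each side. Tbx3 is near 0 in other neurons, whereas Tpm3-rs7 and Junb are lower in both.

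By gene list, the differences between the libraries were few. Of 15 measured transcription factors, 1 was higher (Tbx3) and 1 lower (Pbx3, 42.5 and 26.5 CPM), at a median of −0.27. Of 17 measured genes of PTHrP signalling and processing, none was past 1.5-fold in either direction, at a median of −0.02. Of 9 peptides, 2 were higher (Tac1 and Ghrh) and 1 lower (Cartpt), at a median of −0.13 against 0.32 in other neurons. Of 11 feeding-related and hormone receptors, 2 were lower, Htr2c and the kappa opioid receptor Oprk1 (31.0 and 17.3 CPM). Of 30 channels, 2 were higher, Cacna2d1 and Kcnip4 (39.0 and 62.2 CPM). The background over all genes, 0.521% higher and 1.36% lower, applies to each of these counts. Bcl11b itself had a log2 ratio of −0.45. Among cells with a Bcl11b UMI its level was 221 CPM in control and 208 in dHet.

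Several genes below the minimum of 100 UMIs were named after their values were seen and are given as counts. Dlx5, a homeodomain factor of GABA neurons, had 42 UMIs in control and 13 in dHet (ratio 0.378, 0.186 to 0.718), in 35.2% and 12.5% of cells. Cdh9, a cadherin, had 36 and 7 UMIs, in 31.0% and 9.38% of cells. Gabrb2, a GABA receptor subunit, had 49 and 15 UMIs, in 47.9% and 18.8% of cells. Sox14, a Sox factor, had 3 and 30 UMIs, with 84.8% of them in 5 cells. Nts and Grp had 65 and 10 and 43 and 5 UMIs, with 84.0% and 97.9% in 5 cells.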

How the data were processed

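Viable tdTomato-positive cells were profiled with 10x Genomics 3′ v3 chemistry, 1 library per genotype, per the labels' protocols. Per the submitters' processing notes, the authors used Cell Ranger with mm10. The headers of the matrix files give version 3.0.2. The deposited values are raw UMI counts, and the authors' merged table of both libraries was used for all values. The sources used here do not state how its cells were filtered. Levels were UMIs summed over cells per library, scaled to CPM, and log2 ratios had 5 CPM added to each side. Genes compared had at least 100 UMIs. Genes the rule used were left out of counts. Intervals are exact at 95% (Poisson, Clopper-Pearson, or conditional binomial for ratios).

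Named genes were the 15 highest and 10 lowest against other neurons by the smaller ratio of the libraries, the 12 highest and 12 lowest dHet over control with a UMI in at least 10% of cells of 1 library, and genes of the lists with at least 30 UMIs. Genes with unnamed models, ribosomal, mitochondrial and sex-linked genes were left out of the ranks. Nfib, Kcnip4, Pbx3, Oprk1, Npy1r, Grik3, Kcnk9 and the genes that differed by Bcl11b or went with another gene were named after their values were seen, as were Tbx3's and Nfix's levels by Bcl11b. The cells and lists were chosen with earlier results of these data known. Thinning drew 10000 UMIs per cell without replacement, leaving out shallower cells (2 control and 1 dHet of these neurons). Thinned detection in the Pthlh and Otp neurons kept the first choice of cells. For the thinned share of neurons, gene counts and gene ratios the rule was applied again, which gave 32 control and 36 dHet cells. Scrublet in scanpy 1.11.5, at an expected rate of 4%, marked 0.661% and 0.533% of cells and served only as an alternative. Python 3.11.15, numpy 2.4.6 and scipy 1.17.1 were used, and the calculations were tested on simulated data. Promoter and protein sequences were not used here. Some genes are not reported here, in the text or figures.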

Additional observations from a re-analysis of the deposited data

How the results depend on the processing

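No paired analysis was possible because each genotype has 1 library. The ratio of shares stayed below 1 and inside its interval under every alternative: 0.616 with at least 2 UMIs of each gene (0.376 to 0.999), 0.689 from all matrix barcodes with at least 500 genes and at most 20% mitochondrial UMIs (0.492 to 0.962), 0.709 to 0.796 under the other planned cell choices and denominators, and 0.893 thinned. The 142 genes past 2-fold against other neurons became 254 with at least 2 UMIs of each gene, 255 thinned (112 of the 142 among them), 470 and 43 with 1 and 20 CPM added, and 40 against Otp neurons without Pthlh. The 112 genes past 1.5-fold between the libraries became 42 thinned, where 1330 genes in place of 5951 were compared. They became 38 with 20 CPM added, 24 with at least 300 UMIs per gene, 395 with at least 30 and 656 without a minimum. Of the 112, 37 were also past it with at least 2 UMIs of each gene and 57 from all matrix barcodes. Of 281 recomputed ratios of named genes between the libraries, 262 stayed inside the counting interval, 17 left it with the same sign and 2 changed sign, −0.36 for Cacna2d1 with at least 2 UMIs of each gene and −3.14 for Ghrh with a neuron sum of 20 CP10K. Of 374 ratios against other neurons, 272 stayed inside the counting interval, 102 left it with the same sign and none changed sign. From all matrix barcodes, the log2 ratio of Apoe was −1.29 in place of −3.53, and that of Crabp1 −1.69 in place of −3.38. After seeing the data, 2 alternatives were added. Without cells holding any Sst UMI the share ratio was 0.877 and 33 of the 112 genes remained, and with only cells of at least 10000 UMIs it was 0.724 and 110 remained. Depth limits genes under about 100 UMIs, and with 135 cells and 1 pool per genotype nothing here measures the spread between mice.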
